A study of Mus musculus with 51 samples.

Results

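Tlr1, Tec, Malt1 and Pou2af1 were followed as 4 mouse genes of Toll-like receptor and B-cell signalling printed on spotted 2-colour arrays. All spots carrying one of these symbols in the platform annotation were taken, which gave 1 feature of 2 spots for each gene, or 4 of the 7920 features on the array. The genes were chosen by name with their ratios already known from these arrays, so their differences between spiked arrays and arrays at 0 pmol are given as a description, with no test. The arrays were hybridised with RNA of CRL1606, a suspension hybridoma made by fusing spleen cells of an immunised BALB/c mouse with a mouse myeloma line, which secretes an antibody against fibronectin. Both channels held RNA of this same line. At every amount above 0 pmol, 100 genes had been added to the RNA of channel 1 and another 100 to that of channel 2, at 1 amount per gene within an array. The arrays comprised 3 at 0.025 pmol, 6 at 0.05 pmol, 6 at 0.1 pmol, 3 at 0.15 pmol, 3 at 0.2 pmol, 6 at 0.25 pmol, 6 at 0.5 pmol, 6 at 0.75 pmol, 3 at 1 pmol and 3 at 2 pmol, set against 6 arrays at 0 pmol, or 51 in all. The titles call the arrays of every amount self-hybridisations. The amounts with 3 arrays hold replicates 1 to 3 only, so their differences from 0 pmol cannot be fully told apart from the replicate set. The sources used here do not name the added genes.

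Tlr1 encodes a receptor that pairs with TLR2 at the cell surface to detect bacterial triacylated lipopeptides. Tec encodes a non-receptor tyrosine kinase, a relative of Btk, that acts downstream of antigen and cytokine receptors. Malt1 encodes the paracaspase that acts with BCL10 in the CBM complex, which carries antigen receptor signals to NF-kB. Pou2af1 encodes the B-cell coactivator OBF-1, also called Bob.1, which binds the octamer factors Oct-1 and Oct-2 and is needed for germinal centre formation.

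Each value below is a log2 ratio of the 2 channels after each array was centred on its median, averaged over the paired spots. None of the sources used here says which channel was divided by which, so ratios are described only as positive or negative. These signs are those of the centred ratios. The array medians before centring lay between -3.33 and 0.97, so a ratio near 0 can have the other sign in the deposited values. For example, Pou2af1 at 0 pmol replicate 4 read 0.40 after centring and -0.67 before it. Because both channels held the same hybridoma RNA, a ratio gives neither the level of a gene in these cells nor a check of the line against its B-lineage markers, and fewer cells of a type and less RNA per cell cannot be told apart. Array quality varied. The 3 arrays at 1 pmol missed 13.5% to 50.5% of their spots, against 0.201% to 9.29% on the other 48. Within an array, the paired spots of all features correlated with a median r of 0.887, and with r under 0.7 on 8 arrays. The lowest r, 0.198, belonged to 0.75 pmol replicate 4. That array is included in the values below. Without it, the spiked mean minus the 0 pmol mean was 7.09 for Tlr1 and -5.22 for Tec, and the slope per doubling was 0.45 for Tlr1 and -0.09 for Tec, where the values with it are given below. The 4 genes were measured on 50 arrays for Tlr1, 49 for Tec, 49 for Malt1 and 51 for Pou2af1.

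Tlr1 was strongly positive on all 45 spiked arrays, with a lowest value of 1.66, a median of 6.45 and a highest value of 8.52. On the 5 arrays at 0 pmol where it was measured, it was negative, at -0.70, -1.77, -0.69, -0.32 and -0.81. The spiked arrays and the arrays at 0 pmol did not overlap. Over all features, 0.835% lay wholly above their 0 pmol values on the spiked arrays and 0.506% wholly below. The mean over the 10 spiked amounts minus the 0 pmol mean was 7.03 for Tlr1 (SE 0.52).

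At the lowest amount, 0.025 pmol, Tlr1 read 6.29, 1.66 and 4.73. These 3 arrays spread more widely than those of any other amount, with a mean of 4.22 ± 2.35 (SD, n = 3), against a median SD of 0.36 over all features there. At 0.15 pmol it read 4.35, 5.99 and 6.45, and at 0.2 pmol it read 4.08, 4.25 and 6.91. At 1 pmol it read 7.91, 8.52 and 7.83, and at 2 pmol it read 7.51, 7.94 and 7.36. The top amounts thus gave the narrowest groups, with means of 8.09 ± 0.38 at 1 pmol and 7.60 ± 0.30 at 2 pmol (SD, n = 3 each).

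Among the amounts with 6 arrays, the lowest, median and highest Tlr1 values were 5.11, 5.95 and 7.02 at 0.05 pmol. They were 3.81, 6.35 and 6.45 at 0.1 pmol, and 5.86, 6.70 and 7.82 at 0.25 pmol. They were 4.13, 5.67 and 7.54 at 0.5 pmol, and 4.18, 7.18 and 7.88 at 0.75 pmol. Every one of these 30 arrays lay well above the values at 0 pmol. Ordered by their means from low to high, the amounts ran 0, 0.025, 0.2, 0.15, 0.1, 0.5, 0.05, 0.25, 0.75, 2 and 1 pmol. Of the 10 neighbouring pairs in this order, only 0.025 pmol and 0 pmol did not overlap, a separation that 7.22% of all features showed in this direction. The slope of Tlr1 over the spiked arrays was 0.41 log2 units per doubling of the amount (SE 0.10), across an 80-fold range that spans 6.32 doublings. It was among the 10 highest means at 8 of the 10 spiked amounts, and ranked 20 at 0.025 pmol and 19 at 0.2 pmol.

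**Figure D1:**
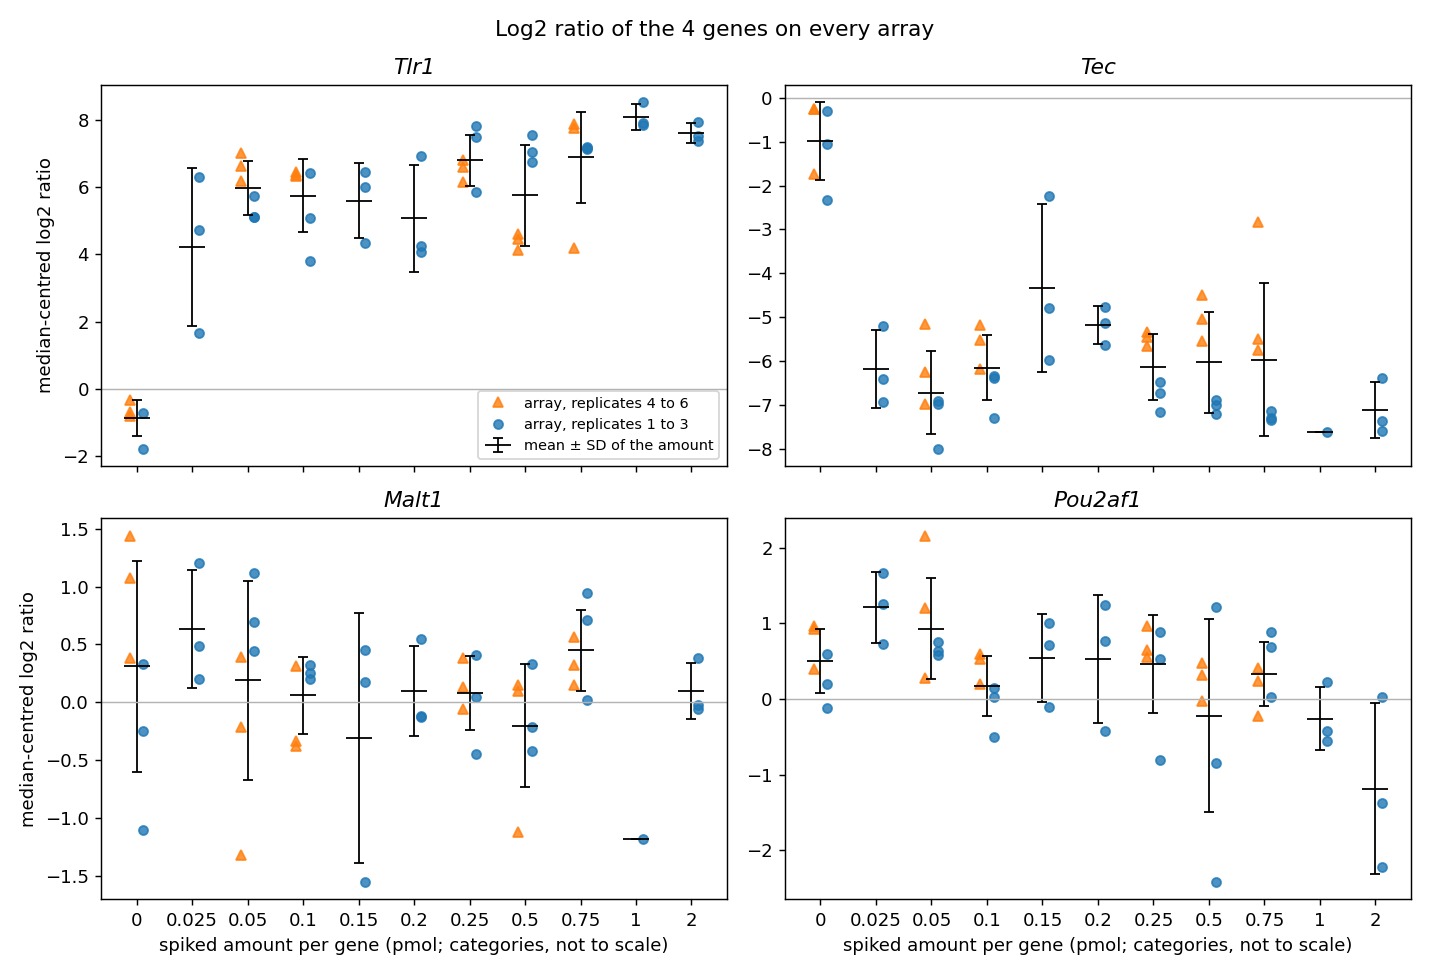
Median-centred log2 ratio (vertical axis, a separate scale in each panel) of Tlr1, Tec, Malt1 and Pou2af1 on every array, by spiked amount in pmol as evenly spaced categories. Triangles are replicates 4 to 6, circles are replicates 1 to 3, and bars are the mean ± SD of the amount. Tlr1 sits between 1.66 and 8.52 and Tec between -8.00 and -2.23 on the spiked arrays, while Malt1 and Pou2af1 scatter about 0.

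Tec was the mirror case, negative on each of the 43 spiked arrays where it was measured, with a lowest value of -8.00, a median of -6.34 and a highest value of -2.23. It was also negative on the 6 arrays at 0 pmol, but much closer to 0, at -0.29, -2.34, -1.06, -0.25, -1.73 and -0.26. The mean over the spiked amounts minus the 0 pmol mean was -5.16 (SE 0.46). Only 0.15 pmol replicate 2, at -2.23, came within the 0 pmol range, and there only 1 of the paired spots was measured. The 0 pmol range reached that far only through its replicate 2, at -2.34, whose spots read -0.85 and -3.83.

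At 0.025 pmol Tec read -5.20, -6.93 and -6.41, within the range of the higher amounts. At 0.15 pmol it read -5.98, -2.23 and -4.80, and at 0.2 pmol -5.64, -5.13 and -4.76. At 2 pmol it read -7.37, -7.59 and -6.38, and at 1 pmol the single measured array read -7.62, from 1 spot. Unlike Tlr1, Tec followed the amount little, with a slope of -0.04 per doubling (SE 0.10). The difference between the slopes of these features was not tested. Tec had the lowest mean of all features at 6 amounts, 0.025, 0.05, 0.1, 0.2, 0.25 and 0.75 pmol. Ordered from low to high, its means ran 1, 2, 0.05, 0.025, 0.1, 0.25, 0.5, 0.75, 0.2, 0.15 and 0 pmol. All neighbouring pairs in that order with more than 1 array in each overlapped. For 0.15 pmol and 0 pmol, this rested on replicate 2 of each, as given above.

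Malt1 stayed close to 0. After centring it was positive on 28 and negative on 15 of the 43 spiked arrays where it was measured, between -1.55 and 1.20 with a median of 0.18. At 0 pmol it read -1.10, -0.25, 0.33, 1.07, 1.44 and 0.38, a range that held 39 of the 43 spiked values. Its SD at 0 pmol, 0.91, was well above the median SD of all features there, 0.37. The mean over the spiked amounts minus the 0 pmol mean was -0.32 (SE 0.26), or -0.19 without the arrays at 1 pmol, and the slope was -0.05 per doubling (SE 0.05).

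By amount, Malt1 averaged between -0.31 ± 1.08 at 0.15 pmol and 0.63 ± 0.51 at 0.025 pmol (SD, n = 3 each) where more than 1 array was measured. The 3 arrays at 0.15 pmol read 0.45, -1.55 and 0.18, so that replicate 2 set the low mean. At 2 pmol it read 0.38, -0.02 and -0.06, against the wider 0 pmol values above. At 1 pmol it was measured on 1 array, at -1.18. All 10 neighbouring pairs in the order of its means overlapped.

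Pou2af1 lay near 0 at most amounts and had its lowest means at 1 and 2 pmol. After centring it was positive on 33 and negative on 12 of 45 spiked arrays, between -2.42 and 2.16 with a median of 0.47. At 0 pmol it read -0.12, 0.60, 0.20, 0.40, 0.92 and 0.97. The mean over the spiked amounts minus the 0 pmol mean was -0.24 (SE 0.30), and the 0 pmol range held 28 of the 45 spiked values. At the low end of the series, 0.025 pmol gave 0.72, 1.66 and 1.26, the highest mean of any amount at 1.21 ± 0.47 (SD, n = 3). At 1 pmol it read -0.43, 0.22 and -0.56. At 2 pmol it read -1.37, 0.03 and -2.22, so that replicates 1 and 3 lay below every 0 pmol array and replicate 2 lay within their range. The 2 pmol minus 0 pmol difference was -1.68 (SE 0.49), between -2.29 without replicate 2 and -1.17 without replicate 3, and -0.32 without centring. The arrays at 1 and 2 pmol are replicates 1 to 3 only, unlike those at 0 pmol. With the replicate number as a block, the 2 pmol difference was -1.46.

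The 6 arrays at 0.5 pmol spread widest for Pou2af1, reading 0.47, 0.31 and -0.03 in replicates 4 to 6, against 1.21, -0.85 and -2.42 in replicates 1 to 3. Low values were therefore not limited to the highest amounts. All 10 amounts overlapped the 0 pmol values, and all 10 neighbouring pairs in the order of means overlapped. The slope over the spiked arrays was -0.27 per doubling (SE 0.06), and it lay between -0.28 and -0.19 under the alternatives tried. Over the spiked amounts, the lowest and highest means of a gene were 3.87 apart for Tlr1, 3.28 for Tec, 1.81 for Malt1 and 2.40 for Pou2af1.

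At 5 spiked amounts and at 0 pmol, the labels give 6 replicates, and arrays of replicates 4 to 6 differed from those of replicates 1 to 3 across many features. This contrast within amounts was not used to choose the 4 genes, though their ratios on the same arrays were known. It was tested with limma over all features. Averaged over the 5 spiked amounts, Tec was 1.62 higher, or closer to 0, in replicates 4 to 6 than in replicates 1 to 3 (SE 0.29, adjusted p = 0.000712). Of all features, 7.53% passed this test, 2.61% upward and 4.92% downward. Tec had the lowest mean of all features at 6 amounts, and features with ratios of like size were not compared separately. Tlr1 differed by -0.25 (SE 0.35, adjusted p = 0.714), Malt1 by -0.36 (SE 0.19, adjusted p = 0.249) and Pou2af1 by 0.44 (SE 0.25, adjusted p = 0.274), none of which passed in limma. Without 0.75 pmol replicate 4, the Tec difference was 1.43 (limma adjusted p = 0.00121) and that of Tlr1 was 0.00 (0.997). Over all alternatives tried the Tec difference lay between 0.80 and 2.45.

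The Tec difference was positive at each of the 5 amounts. At 0.5 pmol, Tec read -4.50, -5.04 and -5.54 in replicates 4 to 6, against -7.00, -7.22 and -6.88 in replicates 1 to 3. At 0.25 pmol it read -5.65, -5.34 and -5.45 in replicates 4 to 6, against -6.48, -7.17 and -6.72 in replicates 1 to 3. The sets did not overlap at either amount, while 13.0% of all features at 0.5 pmol and 8.80% at 0.25 pmol had replicates 4 to 6 wholly above. At 0.75 pmol it read -2.82, -5.75 and -5.49 in replicates 4 to 6, against -7.29, -7.35 and -7.14 in replicates 1 to 3, and at 0.1 pmol -5.18, -5.53 and -6.19 against -6.38, -7.30 and -6.34. These sets also stood apart, as did 8.97% of all features in this direction at 0.75 pmol and 14.8% at 0.1 pmol. At 0.05 pmol the sets overlapped, with -6.99, -5.16 and -6.25 in replicates 4 to 6, against -6.91, -8.00 and -6.98 in replicates 1 to 3. At 0 pmol the Tec difference was 0.49 (limma adjusted p = 0.701).

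Tlr1 behaved differently from amount to amount. At 0.05 pmol it read 7.02, 6.17 and 6.64 in replicates 4 to 6, above the 5.11, 5.12 and 5.73 of replicates 1 to 3, and 16.2% of all features stood apart in this direction. At 0.5 pmol it read 4.61, 4.46 and 4.13 in replicates 4 to 6, below the 7.54, 7.03 and 6.74 of replicates 1 to 3, and 17.3% of all features stood apart in that direction. At 0.1, 0.25 and 0.75 pmol the sets overlapped. A limma F test of whether the difference varied between the 5 amounts, added after the values were seen, gave F = 4.37 for Tlr1 (adjusted p = 0.0338), and 18.7% of all features passed it. The call is lost with no centring (adjusted p = 0.182), with arrays scaled to a common spread (0.771) and with the first spot of each pair alone (0.0576). Without 0.75 pmol replicate 4 the adjusted p was 0.0105. For the other genes the adjusted p of the same test was 0.591 for Tec, 0.487 for Malt1 and 0.683 for Pou2af1. With no centring these 3 passed, at 0.0116 for Tec, 0.00374 for Malt1 and 0.00152 for Pou2af1.

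At 0 pmol, 5.98% of all features passed the limma test between replicates 4 to 6 and replicates 1 to 3. Malt1 read 1.07, 1.44 and 0.38 there in replicates 4 to 6, against -1.10, -0.25 and 0.33 in replicates 1 to 3. These sets did not overlap, nor did those of 28.6% of all features in the same direction, and the difference of 1.30 (SE 0.43) missed the threshold (limma adjusted p = 0.0612). The differences at 0 pmol of 0.63 for Tlr1 (limma adjusted p = 0.713) and 0.54 for Pou2af1 (0.605) did not pass either. The replicate sets also differed in array quality. The paired-spot r was 0.455 to 0.691 in replicates 4 to 6 and 0.924 to 0.958 in replicates 1 to 3 at 0.05 pmol, but 0.943 to 0.976 in replicates 4 to 6 and 0.815 to 0.957 in replicates 1 to 3 at 0.5 pmol. With only the arrays whose paired spots correlated at 0.7 or more, no array of replicates 4 to 6 is left at 0.05 or 0.1 pmol, and the Tec difference over 0.25, 0.5 and 0.75 pmol was 1.65 (limma adjusted p = 0.00409).

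**Figure D2:**
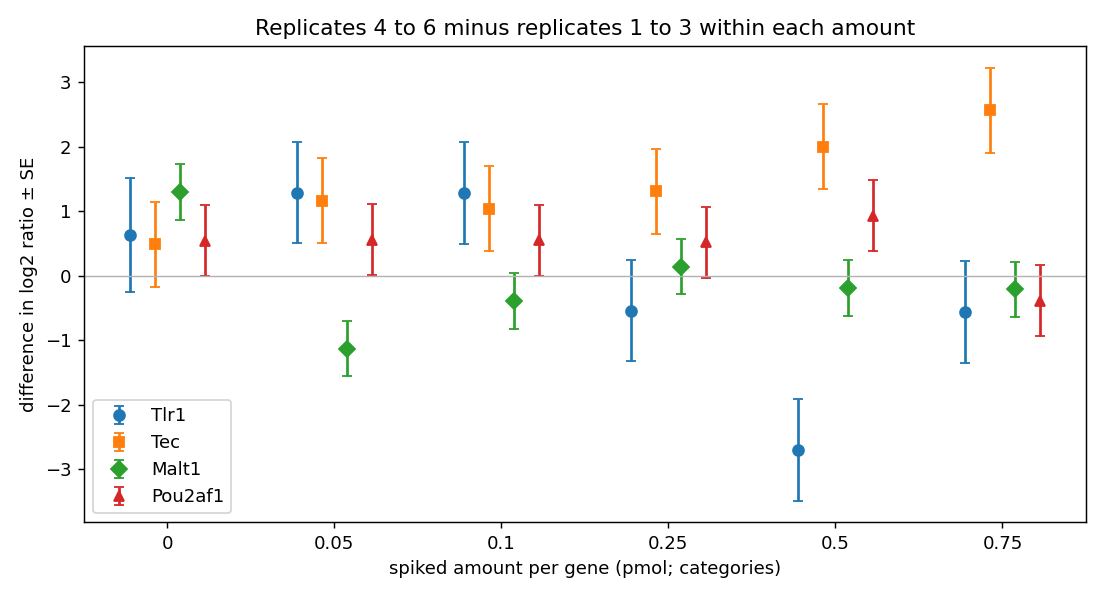
Difference in median-centred log2 ratio between replicates 4 to 6 and replicates 1 to 3 (vertical axis, limma estimate ± SE) at 0 pmol and at the 5 spiked amounts with 6 arrays (horizontal axis, pmol as categories). Tec is positive at each spiked amount, between 1.04 and 2.57, and Tlr1 runs between 1.29 at 0.05 pmol and -2.70 at 0.5 pmol.

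The large ratios were repeated by both spots of a pair. On the spiked arrays the paired spots differed by a median of 0.11 for Tlr1 (45 arrays), 0.13 for Tec (39 arrays with both spots), 0.13 for Malt1 (43 arrays) and 0.05 for Pou2af1 (45 arrays), beside 0.15 over all features. The largest gaps there were 1.11 for Tlr1 and 1.23 for Tec, far below their median distance from 0. At 0 pmol the paired spots differed by a median of 0.56 for Tlr1 (5 arrays), 0.40 for Tec (6 arrays), 0.20 for Malt1 (5 arrays with both spots) and 0.06 for Pou2af1 (6 arrays), beside 0.16 over all features. One pair of Tec spots at 0 pmol lay 2.98 apart, so the negative mean of Tec there, -0.99 ± 0.89 (SD, n = 6), rests in part on spots that differed. Pou2af1 spots differed by at most 0.78 on any spiked array, so its wide scatter at 0.5 and 2 pmol was shared by both spots.

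**Figure D3:**
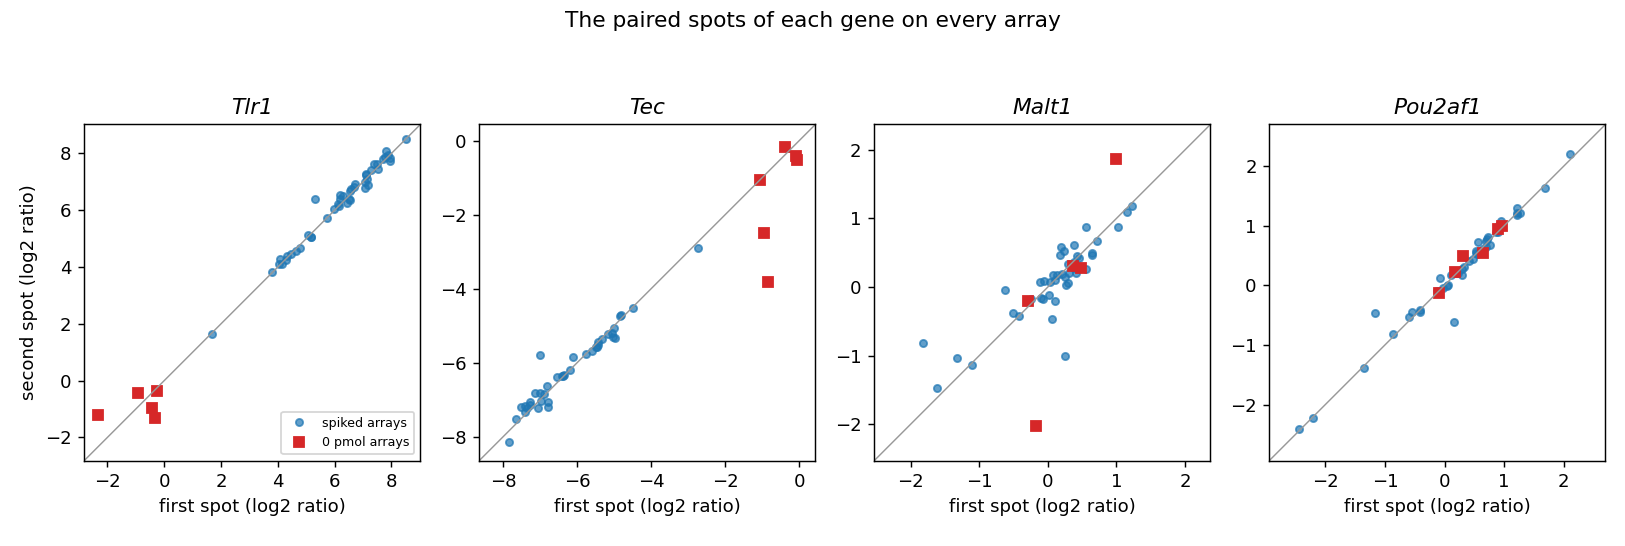
Median-centred log2 ratio of the second spot against the first spot of each pair for the 4 genes, with circles for spiked arrays, squares for arrays at 0 pmol and the line of equality. Points follow the line for Tlr1, Tec and Pou2af1 on the spiked arrays, with median gaps of 0.11, 0.13 and 0.05, and the arrays at 0 pmol scatter more for Tlr1 and Tec.

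The features printed next to Tlr1 and Tec did not share their large ratios, while the small differences of Malt1 lay within those of its neighbours. The 2 pmol minus 0 pmol difference of Pou2af1, -1.68, lay below those of all its neighbours. Around Tlr1, 5 non-control features lay in the neighbouring positions, and their 2 pmol minus 0 pmol differences ran from -0.69 to 1.43. The highest belonged to Tsc22d3, a glucocorticoid-induced leucine zipper gene, which averaged 1.42 ± 0.18 at 2 pmol (SD, n = 3) and -0.01 ± 0.21 at 0 pmol (SD, n = 6; limma adjusted p = 0.00291). Over all features, 15.6% passed the threshold at 2 pmol, 10.3% upward (positive differences) and 5.33% downward (negative ones). The 5 neighbours of Tec ran from -1.62 to 0.54, the 5 of Malt1 from -0.52 to 1.28 and the 8 of Pou2af1 from -0.85 to 0.62. Those with a symbol were Gem (0.32) and Gpr171 (0.47) beside Tlr1, Sesn1 (0.33) and Mef2c (0.54) beside Tec, Ctla4 (1.28), Lgals9 (-0.52) and Lrp6 (-0.36) beside Malt1, and Plekha2 (0.02), Pola2 (-0.39), Bgn (-0.85) and Fam133b (-0.68) beside Pou2af1. Apart from Tsc22d3, none of the neighbours passed in limma. None of the neighbours of any of the 4 genes lay beyond 2 in either direction, where only 5% of all features did.

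The features with the most similar profile over the arrays were found by Pearson correlation among 5347 features with another symbol (5346 for Tec). These arrays share 11 amounts and a common 0 pmol group, and the genes were chosen with their ratios known, so the correlations are a description. Tlr1 was most like Galnt13, a mucin-type O-glycosylation enzyme (r = 0.902 over 48 arrays), Sspn, which encodes sarcospan of the dystrophin complex (r = 0.898, 50 arrays), and Ccdc9 (r = 0.898, 50 arrays). Galnt13 averaged 9.76 at 2 pmol and -0.62 at 0 pmol, so it too was positive at 2 pmol and below 0 on average at 0 pmol. Tec was most like Fem1c, which brings substrates to a ubiquitin ligase (r = 0.916, 49 arrays), Slc7a1, a cationic amino acid transporter (r = 0.899, 48 arrays), and Nap1l4, a histone chaperone (r = 0.894, 49 arrays). Fem1c averaged -7.49 at 2 pmol and -0.25 at 0 pmol.

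Malt1 had no close match. Its most similar features were Mfsd14b (r = 0.681, 49 arrays), Dpy19l1 (r = 0.625, 48 arrays) and Rpap1 (r = 0.620, 48 arrays). Pou2af1, by contrast, had matches as close as those of Tlr1 although it varied over a much narrower range. They were Raver1, an RNA-binding protein (r = 0.908, 51 arrays), Cd74, the MHC class II invariant chain (r = 0.903, 51 arrays), and Fgfbp1, a carrier of fibroblast growth factors (r = 0.895, 51 arrays). These 3 genes were also lower at 2 pmol than at 0 pmol. Raver1 averaged -0.52 at 2 pmol and 0.72 at 0 pmol, Cd74 -0.49 and 0.70, and Fgfbp1 -0.63 and 1.05.

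Other genes of the same pathways were taken from 6 lists, written with earlier results of these arrays known. Of 191 genes in the lists, 42 were found on the array, with 58 features other than those of the 4 genes. At 2 pmol against 0 pmol, 4 of the 58 features passed the limma threshold upward and 8 downward. Of all features 15.6% passed, 10.3% upward and 5.33% downward, which is also the background of each list count at 2 pmol below. The 2 pmol arrays are replicates 1 to 3 only, so the replicate set cannot be fully told apart from the amount. With replicates 1 to 3 alone, 8 list features passed. In the main fit the median difference of the 58 was -0.12, beside 0.04 over all features. Of the 58, 51 differed by less than 1, a share not counted over all features. Beyond 2 in either direction lay 2 of the 58, beside 5% of all features. The spiked amounts share the 0 pmol arrays, so the amounts are not independent of each other. Without centring, the median difference of all features at 2 pmol was 1.41, and the sign of 7 of the 12 called list features turned, namely Unc93b1, Ikzf1, Inpp5d, Nfkb2, Cd28, Mef2c (1 feature) and Dapp1 (1 feature).

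In the Toll-like receptor list, 1 of 7 features passed, and 0 did with no centring or without replicate 3. Among features measured on all arrays 0 passed, but the called feature, Unc93b1, was measured on 43 spiked arrays and so was not in that subset. Unc93b1, the chaperone that carries endosomal Toll-like receptors, averaged -0.25 ± 0.54 at 2 pmol (SD, n = 3) and 0.70 ± 0.08 at 0 pmol (SD, n = 6), a difference of -0.95 (limma adjusted p = 0.00291) that turned to 0.42 without centring. The median difference of the list was -0.32. Tlr2 and Tlr6, the closest partner and the closest relative of Tlr1, had no feature under their symbols and so were not analysed here.

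Of the 17 features in the B-cell receptor list, 2 passed upward and 3 downward at 2 pmol, with a median of -0.20. Over all features, 10.3% passed upward and 5.33% downward there. This count of 5 became 2 with the first spot alone, with the replicate block and without replicate 3. Cd22, the inhibitory sialic acid-binding coreceptor of the B-cell receptor, stood far from the others. It averaged -5.93 ± 0.08 at 2 pmol (SD, n = 3) and 0.20 ± 0.29 at 0 pmol (SD, n = 6), a difference of -6.13 (SE 0.81, limma adjusted p = 5.86e-08). It was negative on 45 of 45 spiked arrays and passed the threshold at all 10 amounts. Btk, the kinase most closely related to Tec on this list, averaged 0.77 ± 0.02 at 2 pmol (SD, n = 3) and -0.47 ± 1.21 at 0 pmol (SD, n = 6). That difference of 1.24 (limma adjusted p = 0.0493) passed at 1 amount only, and missed the threshold with centring by print block (limma adjusted p = 0.0565). Txk, another Tec family kinase, differed by 1.12 (limma adjusted p = 0.0546).

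Probes of the same gene could differ in this list. Dapp1, an adaptor downstream of phosphoinositide 3-kinase in B cells, had 3 features that differed by 0.83 (limma adjusted p = 0.0319), -1.15 (0.000451) and -0.09 (0.886) at 2 pmol. Without centring the feature at -1.15 became 0.21. Inpp5d, the phosphatase SHIP1, had features that differed by -0.73 (limma adjusted p = 0.0437) and 0.00. Bcl10 and Casp8, which act with Malt1, had no feature under their symbols and so were not analysed here. The same held for Pou2f1 and Pou2f2, the octamer factors bound by the product of Pou2af1.

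Among 10 features of the CBM complex and NF-kB list, 0 passed upward and 1 downward at 2 pmol, with a median of -0.13, and 0 in all without replicate 1 or without replicate 3. Nfkb2, which encodes the p100 and p52 forms of NF-kB, averaged -0.35 ± 0.21 at 2 pmol (SD, n = 3) and 0.45 ± 0.17 at 0 pmol (SD, n = 6; limma adjusted p = 0.00195), and turned to 0.56 without centring. Of the 17 features of B-lineage transcription factors, 1 passed upward and 2 downward, with a median of 0.04, and 1 in all without replicate 3. Ikzf1, which encodes Ikaros, differed by -1.17 in one feature (limma adjusted p = 0.00456) and by -0.29 in another (0.828). Mef2c, a factor for B-cell proliferation after antigen receptor signalling, had 9 features, of which one differed by 0.88 (limma adjusted p = 0.0351) and one by -1.17 (0.00239).

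The marker lists held few features. Ms4a1, which encodes CD20, was the only B-lineage or plasma cell marker of 24 listed, and its difference of 0.37 did not pass (limma adjusted p = 0.525). It was called only with no centring, where the median of all features at 2 pmol was 1.41. Of 6 features of T-cell, NK-cell and myeloid markers, 1 passed upward and 1 downward, and 0 in all among features measured on all arrays. That 0 is no test of a feature left out of the subset, such as Cd28, measured on 44 spiked arrays. Cd3e, a subunit of the T-cell receptor complex, averaged 0.39 ± 0.24 at 2 pmol (SD, n = 3) and -1.63 ± 0.65 at 0 pmol (SD, n = 6; limma adjusted p = 1.11e-05), and Cd28, a T-cell costimulatory receptor, differed by -0.68 (limma adjusted p = 0.036).

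The related genes were also counted over the whole series of amounts. Of the 58 features, 32 were called at 0 amounts, beside 46.6% of all features, and 2, Cd22 and Cd3e, at 5 or more, beside 7.90% of all features. At 0.025 pmol 2 were called, where 4.98% of all features were. Likewise 2 were called at 0.05 pmol (4.15% of all features) and 2 at 0.75 pmol (7.49%). The counts were 4 at 0.1 pmol (6.26% of all features), 4 at 0.15 pmol (10.7%), 3 at 0.2 pmol (8.89%), 5 at 0.25 pmol (13.0%) and 12 at 0.5 pmol (25.1%). At 1 pmol 2 were called upward and 11 downward of 41 tested, where 42.5% of all features were called, 15.9% upward and 26.6% downward.

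**Figure D4:**
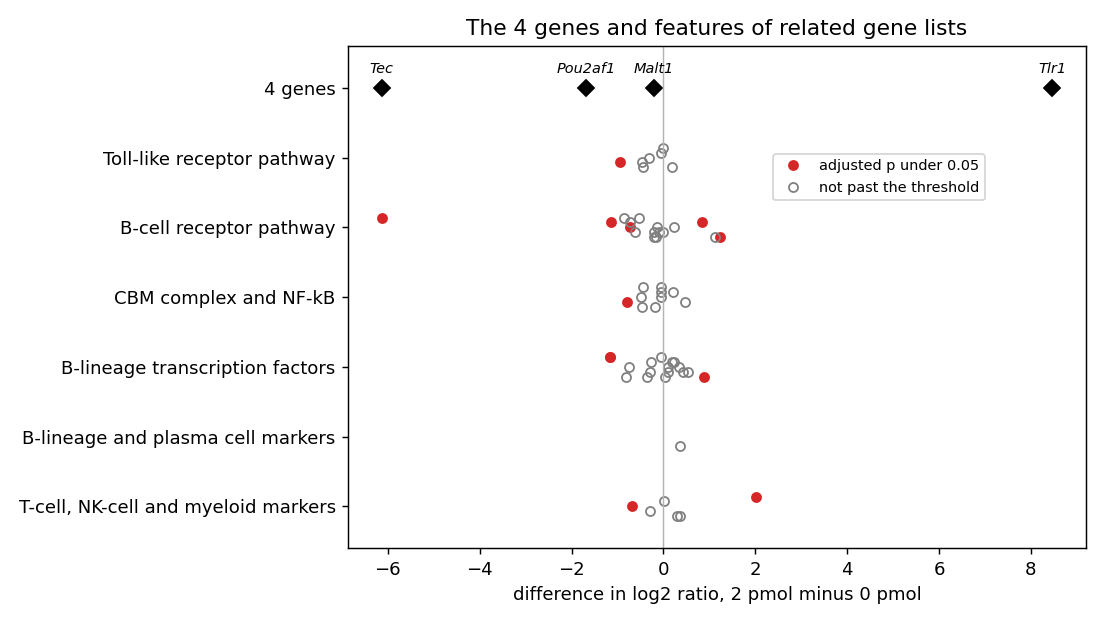
Difference in median-centred log2 ratio, 2 pmol minus 0 pmol (horizontal axis), for the 4 genes (diamonds, untested) and for the 58 features of 6 related lists (rows), filled where the limma adjusted p was under 0.05. Tlr1 at 8.46 and Tec at -6.13 lie outside nearly all list features, of which 51 differ by less than 1, and Cd22 at -6.13 lies level with Tec.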

How the data were processed

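For each of 51 arrays, the authors deposited a log2 ratio for every spot. The log base was read from the values, and the filtering and normalisation of spots are not given in the sources used here. The deposited log2 ratios had array medians between -3.33 and 0.97, so each array was centred on the median of its non-control spots. Of the values, 1074 at the upper limit of 16.61 were treated as missing; none belonged to the 4 genes. The 16896 spots form 48 blocks of 352. Spots 22 positions apart were taken to carry the same probe, so pairs were averaged to 8448 probes, of which 528 are controls. Both spots listed the same identifier in 5458 pairs and different ones in 0. In 2989 pairs neither spot listed one, and in 1 pair only 1 spot did. Symbols were updated with RefSeq genes of GRCm38.p6, for names only (10766 spots matched). No source used here names a build for the probes, so no coordinates are printed.

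Groups and replicate numbers came from the sample titles. No label ties replicates to separate cultures, so the p-values reflect only array-to-array spread, possibly technical. With 3 or 6 arrays per amount, their number limits the precision. All features were fitted with limma 3.58.1 in R 4.3.3 (package data.table, version 1.17.8): 1 mean per amount over 51 arrays, or 1 mean per amount and replicate set for the contrast of replicates 4 to 6 with 1 to 3. Tests were two-sided, with at least 2 measured arrays per group and a Benjamini-Hochberg adjusted p under 0.05 over all features. The slope used log2 of the amount on the 45 spiked arrays. Figures and summaries used Python 3.11.15, pandas 2.3.3 and matplotlib 3.10.9. The fit was tested on simulated data.

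The members and the lists were chosen with earlier results of these data known. Named are all features of the 4 genes, the 3 features with 1 symbol most correlated with each over at least 40 arrays, the closest relatives and partners, neighbours on the array with 1 symbol, and, per list, up to 4 features past the threshold at 2 pmol with the largest differences. Inpp5d and further features of the same genes were added after their values were seen. Alternatives changed the centring, the scaling, the spot used, the upper limit, the replicates and the arrays included. Same-numbered arrays at 0 pmol and at the spiked amounts did not deviate together (45 pairs, r between -0.267 and 0.226, 8 above 0.1), so the numbers were not taken to pair them.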

Additional observations from a re-analysis of the deposited data

Results flagged for a closer look

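Among 24 groups of 5 or 6 arrays examined over the 4 genes, 2 held an array whose value stood apart from the rest by Dixon's criterion, which chance meets in about 1 of 20 groups. Tlr1 at 0.75 pmol had its lowest value in replicate 4, at 4.18, with the other arrays between 7.12 and 7.88. Without it the Tlr1 mean at 0.75 pmol was 7.42 ± 0.36 (SD, n = 5), against 6.88 ± 1.36 with it (SD, n = 6). On the same array Tec read -2.82, and the paired spots of all features correlated least of any array, at r = 0.198. Pou2af1 at 0.25 pmol had its lowest value in replicate 3, at -0.81, with the other arrays between 0.53 and 0.97. The difference of Tlr1 between replicates 4 to 6 and replicates 1 to 3 varied between the 5 spiked amounts (limma F test, adjusted p = 0.0338, added after the values were seen), as given above with the settings that lose the call.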

How the results depend on the processing

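For the 4 genes, the only signed difference that passed a test in the main setting kept its sign under the alternatives. It was that of Tec between replicates 4 to 6 and replicates 1 to 3. Over the alternatives the mean over the spiked amounts minus 0 pmol ran from 6.82 to 7.57 for Tlr1, -5.39 to -4.47 for Tec, -0.41 to 0.42 for Malt1 and -0.37 to 0.43 for Pou2af1; leaving out a replicate number gave 6.86 to 7.17, -5.39 to -4.89, -0.41 to -0.09 and -0.37 to -0.19, with no value for Tec without replicate 3 or Malt1 without replicate 1, which hold their only arrays at 1 pmol. Without centring, the 2 pmol minus 0 pmol difference became 9.69 for Tlr1, -4.76 for Tec, 1.16 for Malt1 and -0.32 for Pou2af1, and the Malt1 mean over the spiked amounts became 0.41, a setting in which the median of all features also shifts by 1.41 at 2 pmol. Replicates 1 to 3 alone gave 0.42 for that Malt1 mean. Without centring, the median of all features also differed by -0.89 between replicates 4 to 6 and 1 to 3, and the differences of Tlr1 (-1.07, limma adjusted p = 0.0118) and Malt1 (-1.18, limma adjusted p = 0.000204) then passed the threshold. The Pou2af1 difference then turned from 0.44 to -0.39 and did not pass (limma adjusted p = 0.125). The Tec difference passed in all 8 alternatives (limma adjusted p between 3.8e-05 and 0.0279). The count of 12 called list features at 2 pmol became 7 with the first spot alone, 7 with the replicate block and 4 to 11 with a replicate number left out, 7 without replicate 1 and 4 without replicate 3. With the replicate block, the mean over the spiked amounts minus 0 pmol was 6.98 for Tlr1, -4.81 for Tec, -0.34 for Malt1 and -0.13 for Pou2af1; samples of one number share only that number here. Missed spots limit the 1 pmol values of Tec and Malt1 to 1 array each. The causes of these shifts were not tested beyond the values given.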
